A study of Homo sapiens with 2 samples.

Results

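Immediate early genes, the MAP kinase phosphatases DUSP1 and DUSP6 and the kinase gene SGK1 were examined in HepG2 cells treated with Padma 28. The genes FOS, FOSL1, JUN, JUNB, EGR1, IER2, IER3, DUSP1, DUSP6 and SGK1 were chosen by name, with earlier results of these data known. All 10 were found among the 19775 genes that have a probe set of their own on the array. They are represented by 19 probe sets. HepG2 is a human hepatocellular carcinoma cell line, and Padma 28 is a polyherbal Indo-Tibetan preparation. One group of cultures received its aqueous ethanolic extract at 218 μg/ml, the other the solvent alone (EtOH, 0.9%), each for 18 h. For either treatment, 3 cultures were pooled into 1 RNA sample and measured on 1 array (Affymetrix U133 Plus 2.0). The 2 arrays therefore give no spread between cultures, no test across samples was made, and a difference between the cultures cannot be told apart from an effect of the extract.

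Immediate early genes are transcribed within minutes of a stimulus from proteins that are already present in the cell, and their transcripts are usually short-lived. Growth factors, stress and serum reach many of them through MAP kinases such as ERK, which activate serum response factor and its partners at CArG boxes in the promoters. FOS and JUN proteins pair to form the transcription factor AP-1. DUSP phosphatases remove the activating phosphates from MAP kinases and so close a feedback loop. SGK1, a kinase related to AKT, is transcribed in response to glucocorticoids, serum and changes in cell volume, and acts on ion channels, transporters and FOXO factors.

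The RefSeq promoter sequences (GRCh38.p14) of EGR1, DUSP1 and SGK1 are shown because EGR1 and DUSP1 carry well-known regulatory motifs of immediate early genes and SGK1 had the largest difference of the 10 genes. Each covers the 250 bases before a transcription start, 5′ to 3′ on the strand of the gene. Capitals mark CArG boxes, cAMP response elements (TGACGTCA), the core of the antioxidant response element (TGACNNNGC) and the TATA box sequence (TATAAA), on either strand. EGR1 lies on the plus strand at chr5:138465229-138465478, DUSP1 on the minus strand at chr5:172771196-172771445. SGK1 has 3 starts in the table, all on the minus strand, at chr6:134318113-134318362, chr6:134177862-134178111 and chr6:134174867-134175116.
EGR1: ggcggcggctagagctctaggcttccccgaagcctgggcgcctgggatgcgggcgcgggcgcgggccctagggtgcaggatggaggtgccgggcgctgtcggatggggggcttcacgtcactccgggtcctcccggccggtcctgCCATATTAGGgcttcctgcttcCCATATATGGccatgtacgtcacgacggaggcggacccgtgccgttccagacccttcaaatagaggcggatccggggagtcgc
DUSP1: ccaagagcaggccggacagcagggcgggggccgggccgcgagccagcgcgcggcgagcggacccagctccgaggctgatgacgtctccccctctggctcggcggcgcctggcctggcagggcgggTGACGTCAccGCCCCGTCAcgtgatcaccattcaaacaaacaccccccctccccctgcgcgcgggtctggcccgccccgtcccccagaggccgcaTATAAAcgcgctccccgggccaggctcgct
SGK1 (distal start): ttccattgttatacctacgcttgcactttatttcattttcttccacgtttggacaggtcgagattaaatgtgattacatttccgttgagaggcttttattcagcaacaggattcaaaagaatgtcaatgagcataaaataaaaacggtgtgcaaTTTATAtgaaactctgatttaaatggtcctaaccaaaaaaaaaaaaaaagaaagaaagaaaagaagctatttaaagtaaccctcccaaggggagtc
SGK1 (middle start): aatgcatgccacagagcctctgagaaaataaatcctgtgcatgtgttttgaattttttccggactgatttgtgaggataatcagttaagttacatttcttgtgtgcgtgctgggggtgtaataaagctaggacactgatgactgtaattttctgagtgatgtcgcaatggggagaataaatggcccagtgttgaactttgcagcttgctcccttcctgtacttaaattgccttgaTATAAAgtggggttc
SGK1 (proximal start): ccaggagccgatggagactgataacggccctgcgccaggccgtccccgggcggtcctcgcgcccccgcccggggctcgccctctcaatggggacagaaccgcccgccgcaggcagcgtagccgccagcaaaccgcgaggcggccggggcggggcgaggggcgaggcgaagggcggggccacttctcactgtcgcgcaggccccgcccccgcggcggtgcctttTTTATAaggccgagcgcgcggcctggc

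Promoter sequences were found for 8 of the 10 genes, all but FOSL1 and IER3. CArG boxes, the binding sequence of serum response factor, occurred in EGR1 alone among these 8, where 2 of them start 105 and 83 bases before the transcription start. Only the 250 bases before each start were searched, so sites further away, in FOS or any other gene, were missed. Over all 35116 promoter windows of this length in the table, 1.16% held a CArG box. The full cAMP response element TGACGTCA was found in DUSP1, 125 bases before the start, and in 1.65% of all windows. Variants of it were not searched, such as TGACGTTT, which stands in the FOS window. DUSP1 also held the antioxidant response element core on the opposite strand, next to the cAMP response element but not overlapping it, as did 10.9% of all windows. The AP-1 sequence TGANTCA was in none of the 8 genes and in 6.57% of all windows. This pattern misses longer variants such as TGACATCA, which stands in the JUN window. The TATA box sequence TATAAA, on either strand and at any position, stood in FOS, JUNB, DUSP1 and SGK1, 4 of 8 genes against 10.7% of all windows. In FOS, JUNB and DUSP1 it began 33, 31 and 30 bases before the start, on the strand of the gene. In SGK1 it lay on the opposite strand, 96 and 27 bases before the distal and proximal starts. Before the middle SGK1 start it was on the strand of the gene, but only 15 bases away. Whether the SGK1 matches act as TATA boxes was not tested. Several windows per gene were searched for SGK1, and a match in sequence says nothing about binding in these cells.

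With Padma 28, SGK1 was 2.57-fold lower than with EtOH, and FOSL1, which encodes the AP-1 subunit FRA-1, was 1.90-fold higher. The phosphatase genes DUSP1 and DUSP6 and the stress gene IER3 were 1.31-fold to 1.37-fold lower. On their brightest probe sets, FOS, JUN, JUNB, EGR1 and IER2 lay within 1.17-fold of the solvent control. All log2 differences are given as Padma 28 minus EtOH, and each gene is read from whichever of its probe sets has the highest mean over both arrays. In such bulk RNA, fewer cells that express a gene and less of its RNA per cell cannot be told apart. Of the 10 genes, 1 was more than 2-fold lower, where the share over all genes was 0.384%, and 0 were more than 2-fold higher, against 0.875% of all genes. At 1.5-fold, 1 was higher (FOSL1, against 3.61% of all genes) and 1 lower (SGK1, against 1.56% of all genes). With 64 added to both linear values the log2 difference of FOSL1 was 0.57, under the 1.5-fold line. The median log2 difference of the 10 genes was -0.15, where that of all genes was -0.02 and that of genes above background 0.06. This median had no stable sign, being -0.46 with the probe set of the largest difference and 0.074 over the 7 genes left without _x_at and _s_at probe sets.

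**Figure D1:**
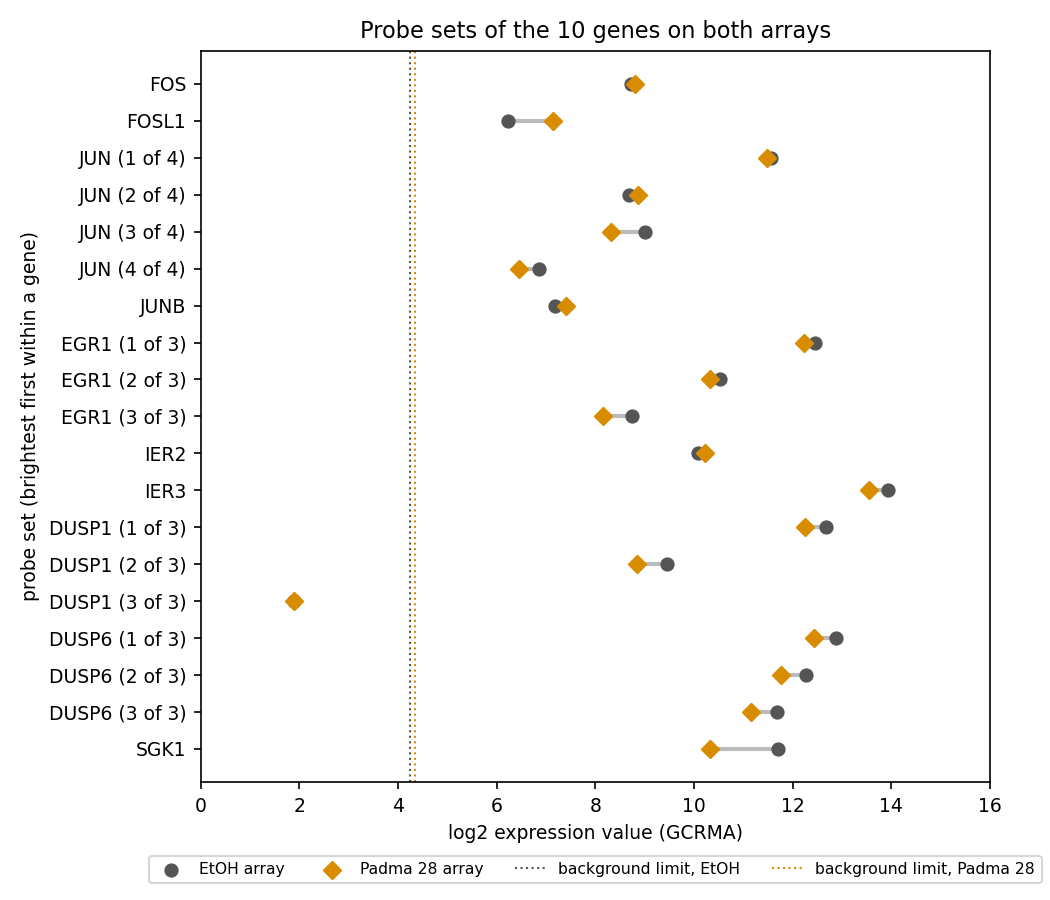
Log2 expression value (horizontal axis) of each of the 19 probe sets of the 10 genes (vertical axis) on the EtOH array (grey circles) and the Padma 28 array (orange diamonds), 1 array per treatment, with dotted lines at the background limits. SGK1 shows the widest gap to the left, from 11.70 to 10.33, FOSL1 the widest to the right, from 6.22 to 7.15, and the third DUSP1 probe set lies below background on both arrays.

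The values were deposited as log2 expression values after GCRMA, which corrects background by probe sequence, normalizes arrays by quantiles and summarizes probe sets. The background limit was set 2 log2 units over the most frequent value of each array, which gave 4.25 for EtOH and 4.35 for Padma 28. All 10 genes were above this limit on both arrays, as were 18 of the 19 probe sets. Among the 10361 genes above background on at least 1 array, 0.705% were more than 2-fold lower and 1.57% more than 2-fold higher, while 2.9% were more than 1.5-fold lower and 6.49% more than 1.5-fold higher. Of these genes 41.9% had a difference below 0, compared with 6 of the 10 genes examined, JUN among them, whose probe sets disagree in sign. For 4912 genes with more than 1 probe set above background, the log2 differences of the 2 brightest were apart by 0.14 at the median and 0.46 at the 90th percentile, which describes the measurement within the arrays and not the spread between cultures. All 10 hepatocyte markers with a probe set of their own, among them ALB and AFP, were between 11.79 and 16.62. Of 7 markers of other cell types, PTPRC, CD3E, COL3A1 and DES were below background on both arrays, while PECAM1, COL1A1 and ACTA2 were above it, and their part in the results was not tested.

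FOS, the classic partner of JUN in AP-1, was at 8.72 with EtOH and 8.80 with Padma 28, a log2 difference of 0.07. It is measured by a single probe set, and 75.5% of the genes above background differed at least as much in either direction. FOSL1, a FOS relative whose transcript depends on sustained ERK activity and on AP-1 itself, was at 6.22 with EtOH and 7.15 with Padma 28. Its log2 difference of 0.93 was the highest of the 10 genes and ranked 190 from the top among the 10361 genes above background, just inside the 2-fold line. The FOSL1 values lay 1.97 and 2.80 log2 units over the background limits.

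JUN is covered by 4 probe sets that gave different values. The brightest, of the _x_at type, whose probes can also match other sequences, was at 11.56 with EtOH and 11.48 with Padma 28. The others had log2 differences of 0.18, -0.69 and -0.42, so the probe sets lay on both sides of 0 and spread over 0.87 log2 units, the widest range among the 4 genes with several probe sets. No direction is given for JUN. JUNB, a JUN relative that can restrain JUN, was at 7.19 with EtOH and 7.41 with Padma 28 on its single probe set, a log2 difference of 0.21.

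EGR1, a zinc finger factor driven by serum response factor, was at 12.45 with EtOH and 12.22 with Padma 28. All 3 of its probe sets were lower with Padma 28, by log2 differences of -0.22, -0.21 and -0.59 from the brightest to the dimmest. IER2, a small nuclear protein, was at 10.07 with EtOH and 10.22 with Padma 28, a log2 difference of 0.15. IER3, which is known for its part in ERK signaling and cell survival, was at 13.94 with EtOH and 13.55 with Padma 28. Its log2 difference of -0.39 was reached or exceeded in size, in either direction, by 21.2% of the genes above background.

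DUSP1, a nuclear phosphatase that acts on p38, JNK and ERK, was at 12.68 with EtOH and 12.25 with Padma 28. A second probe set was at 9.46 and 8.85, while the third, at 1.89 and 1.88, was below background on both arrays and gives no fold change. The measured log2 differences of DUSP1 were thus -0.43 and -0.61. DUSP6, a cytoplasmic phosphatase with a preference for ERK, was at 12.88 with EtOH and 12.43 with Padma 28 on its brightest probe set. Its other probe sets were at 12.28 and 11.76, and at 11.69 and 11.16. The log2 differences of the 3 DUSP6 probe sets, -0.45, -0.52 and -0.53, differed by 0.08 in all, the narrowest range among the genes with several probe sets. In the order of all genes above background, DUSP6 ranked 525 and DUSP1 572 from the lowest difference, so 5.07% and 5.52% of these genes were at least as far below 0.

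SGK1 was at 11.70 with EtOH and 10.33 with Padma 28, 7.45 and 5.98 log2 units over the background limits. The log2 difference of -1.36 ranked 25 from the lowest among all 19775 genes, and 0.241% of the genes above background were at least as low. SGK1 has 1 probe set, so no other measurement on the array can be set beside it, and the probe set does not tell the 3 starts shown above apart. SGK1 stands in a network that the study built from genes past 2-fold on these arrays, so its place beyond 2-fold is not independent evidence.

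**Figure D2:**
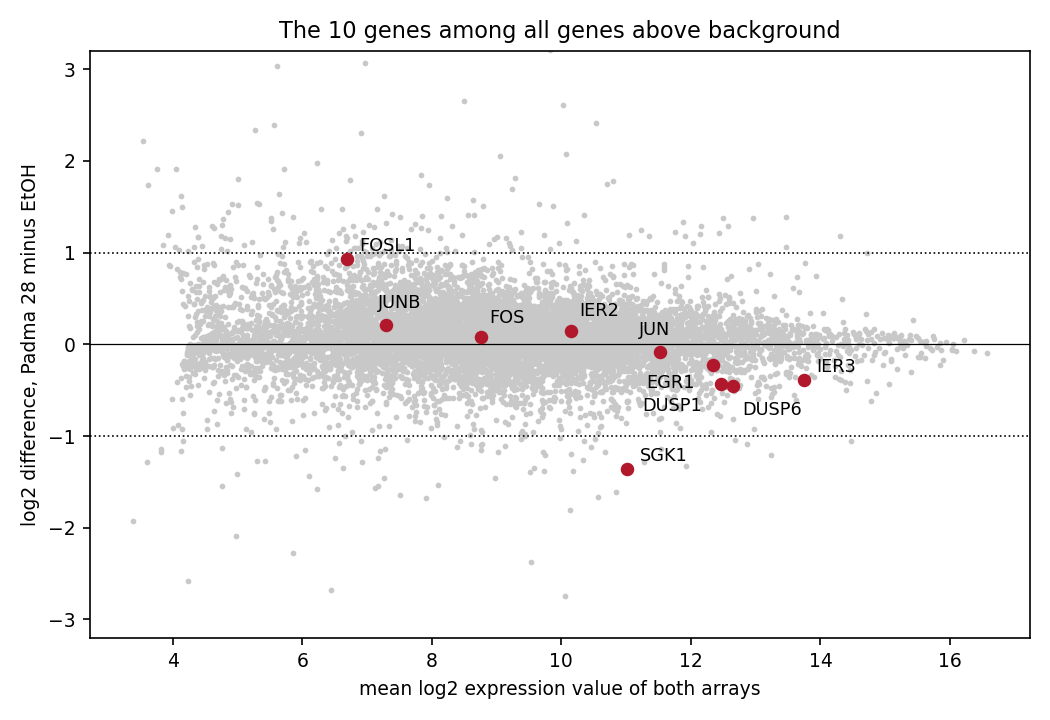
Log2 difference, Padma 28 minus EtOH (vertical axis), against the mean log2 expression value of both arrays (horizontal axis) for the 10361 genes above background on at least 1 array in grey and the 10 genes in red, with dotted lines at 2-fold. SGK1 lies below the lower line, FOSL1 just under the upper one, and IER3, DUSP1, DUSP6 and EGR1 lie below 0 between the lines; 6 genes fall outside the drawn range of 3.2 log2 units on either side.

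Related genes were taken from 12 lists of the same pathways. Of the 149 genes written in them, 135 had a probe set of their own. Among the AP-1 genes outside the 10, JDP2, a repressor that pairs with JUN, was 3.76-fold higher, from 4.76 with EtOH to 6.67 with Padma 28. Its EtOH value was close to the background limit, and a further probe set was below background on both arrays. ATF3, a stress-induced member of the ATF family, was at 7.15 and 7.94, a log2 difference of 0.79. The brightest ATF7 probe set gave 0.20 and the next -0.23, and FOSL2 lay at 0.16 with other probe sets down to -0.36. On the brightest probe set all 7 AP-1 genes of this list above background were above 0, where 58.1% of all genes above background were. The lowest were BATF2 at 0.04 and JUND at 0.07. For 3 of the 7 (ATF7, FOSL2 and JUND), probe sets above background lay on both sides of 0, so a direction holds on every such probe set for 4. Of the 7 genes, 1 was more than 2-fold higher (1.57% of all genes above background) and 0 were lower (0.705%), and the median was 0.16. FOSB, BATF and BATF3 were below background on both arrays.

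Genes listed as inhibitors of ERK signaling outside the DUSP family, where above background, lay below 0, some of them by very little. SPRY1, a Sprouty protein that blocks receptor signaling upstream of RAS, was at 10.36 with EtOH and 9.15 with Padma 28, which is 2.31-fold lower, and its second probe set had a log2 difference of -0.68. SPRY4 was at 10.31 and 9.69, 1.53-fold lower. SPRED2 and PHLPP1, the latter itself a phosphatase, had log2 differences of -0.31 and -0.23. On their brightest probe sets, all 8 genes of this list above background were below 0, where 41.9% of all genes above background were. Their further probe sets above background were below 0 too, a count for which no share over all genes was taken. For ERRFI1 (-0.03) and SPRED3 (-0.01) the difference was smaller than 0.14, the median spread between probe sets of a gene. SPRY2 was at -0.17 and SPRED1 at -0.15. Of the 8, 1 was more than 2-fold lower (0.705% of all genes above background), and the median was -0.20.

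Most genes listed as other MAP kinase phosphatases of the DUSP family, like DUSP1 and DUSP6, lay below 0. DUSP10, which prefers JNK and p38, was at 6.56 with EtOH and 5.81 with Padma 28, 1.68-fold lower, and its other probe set was below background on both arrays. DUSP8 and DUSP16 were at log2 differences of -0.47 and -0.30, and DUSP7 at 0.33. Of 6 genes of this list above background, 5 were below 0 (41.9% of all genes above background), none passed 2-fold, and the median was -0.23. Among those below 0, DUSP9 was at -0.16 and DUSP5 at -0.03, the latter smaller than the median spread of 0.14 between probe sets of a gene. The DUSP genes of a separate list had a median of 0.46 over 7 genes above background. Of these, 5 were above 0 (58.1% of all genes above background) and none was past 2-fold. They included DUSP14 at 0.66, DUSP28 at 0.53, DUSP22 at 0.47 and DUSP12 at 0.46. The difference between these lists was not tested. The split follows the lists as written and is not a division by activity on MAP kinases. The second list may therefore hold such phosphatases too.

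**Figure D3:**
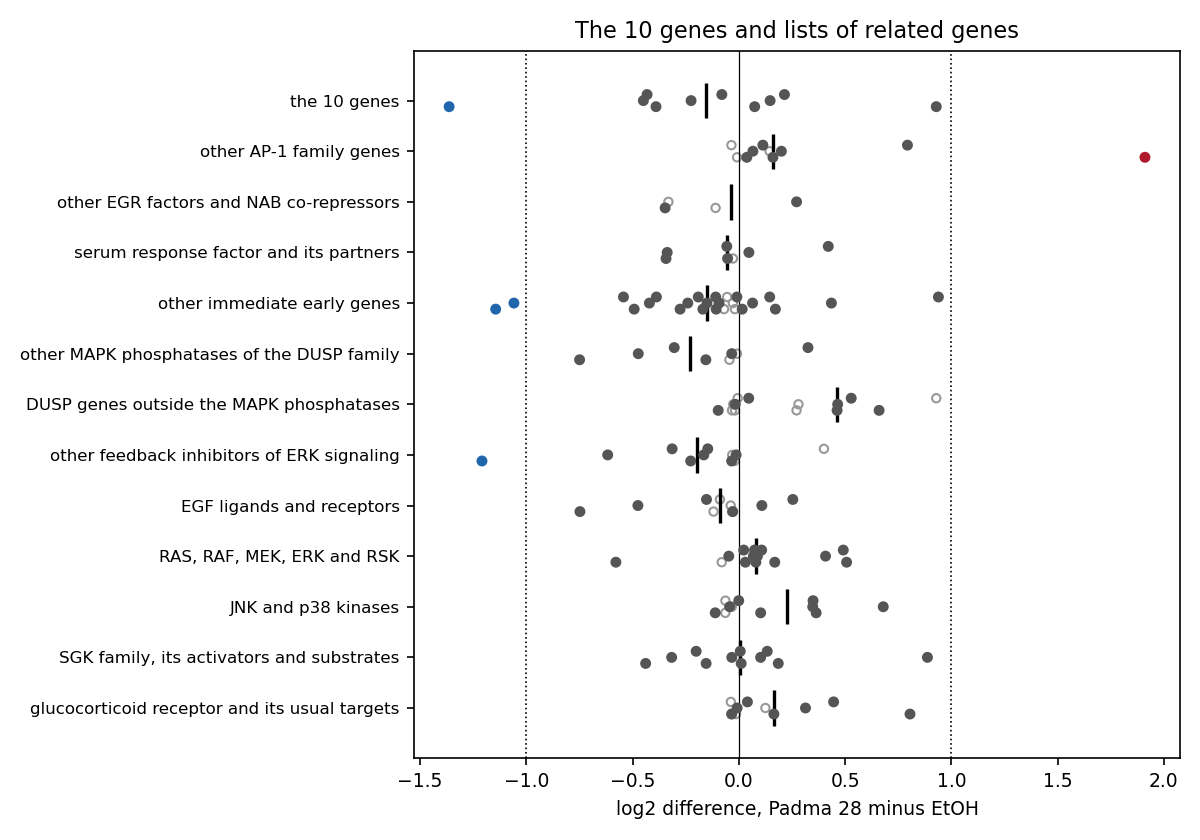
Log2 difference, Padma 28 minus EtOH (horizontal axis), of the 10 genes and of the genes in 12 lists of related genes (vertical axis), from 1 array per treatment. Filled points are above background on at least 1 array (red more than 2-fold higher, blue more than 2-fold lower), and open points are below it on both. Black bars are medians of the filled points, and dotted lines mark 2-fold. On their brightest probe sets, all filled feedback inhibitors lie left of 0 and all filled genes in the row of other AP-1 family genes right of it, some very close to 0.

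Among other immediate early genes, the matricellular proteins CCN1 (also CYR61) and CCN2 (also CTGF) were lower with Padma 28. CCN1 was at 12.10 with EtOH and 10.96 with Padma 28, 2.21-fold lower, and its second probe set had a log2 difference of -1.25. CCN2 was at 15.00 and 13.94, 2.08-fold lower. The cytokine gene LIF, at 6.18 and 7.12, was 1.92-fold higher, and the nuclear protein gene CSRNP1 had a log2 difference of -0.54. Of 21 genes of this list above background, 15 were below 0 (41.9% of all genes above background), 2 were more than 2-fold lower (0.705%) and 0 were higher (1.57%), with a median of -0.15. Probe sets of BTG1 and GADD45B lay on both sides of 0. Both CCN genes stand in a network that the study drew from these arrays.

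Genes upstream of the immediate early genes were within 2-fold on their brightest probe sets, while single dimmer probe sets of ERBB2 and SOS1 were past it. For serum response factor, SRF, the log2 difference was -0.34, and for its partners ELK3, MRTFA and ELK4 it was 0.42, -0.34 and -0.06, with a median of -0.05 over 6 genes above background. Of the EGR factors, EGR3 and EGR4 were below background on both arrays. The EGR1 co-repressors NAB1 and NAB2, the only genes of that list above background, were at 0.27 and -0.35, with another NAB1 probe set at -0.11. Of the EGF ligands and receptors, ERBB2, a co-receptor without a ligand of its own, was at 10.96 with EtOH and 10.21 with Padma 28, 1.68-fold lower. A dimmer ERBB2 probe set was 2.44-fold lower, so ERBB2 lies past 2-fold or within it depending on the probe set. NRG1 was at -0.48 on a probe set of the _x_at type, and all its other probe sets were below background on both arrays. ERBB3 was at -0.15, EGFR had probe sets at 0.25, 0.63 and -0.31, and the median of 6 genes above background was -0.09.

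In the cascade from RAS to ERK and RSK, 13 genes were above background, 11 of them above 0 (58.1% of all genes above background), and none passed 2-fold on its brightest probe set. Their median of 0.08 was close to the 0.06 of all genes above background. The ERK-activated kinase gene RPS6KA3 had a log2 difference of -0.58, RPS6KA1 of 0.51, the adaptor SHC1 of 0.49 and the RAS activator SOS1 of 0.41. Further SOS1 probe sets were at 0.41 and 0.64, and the dimmest above background, at 5.49 with EtOH and 6.67 with Padma 28, had a log2 difference of 1.19, past 2-fold. Among JNK and p38 kinases the median was 0.23 over 8 genes above background, with MAPK13 at 0.68, MAP3K7 at 0.36, MAPK9 at 0.35 and MAPK12 at 0.35. Of the 8, 5 were above 0 (58.1% of all genes above background) and 3 below, namely MAP2K6 at -0.11, MAP2K4 at -0.04 and MAPK8 at -0.0006. Other probe sets were at 0.17, 0.24 and 0.99 for MAP3K7 and at 0.47 and 0.66 for MAPK9. Several kinase genes, BRAF and MAPK14 among them, have no probe set of their own in the annotation and were not analysed here.

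Around SGK1, its relative SGK2 was at 6.73 with EtOH and 7.62 with Padma 28, 1.85-fold higher, while a second SGK2 probe set had a log2 difference of 0.11. The epithelial sodium channel subunit SCNN1A, whose channel SGK1 is known to raise at the cell surface, was at -0.44, the osmotic stress factor NFAT5 at -0.32 and the SGK1 substrate FOXO1 at -0.20. Further probe sets above background were at -0.03 and -0.19 for SCNN1A, at -0.54 and -0.55 for NFAT5 and at -0.09 for FOXO1. Over the 11 genes of this list, all above background, the median was 0.01 and none passed 2-fold on its brightest probe set, while a dimmer one of MAPKAP1, named after its value was seen, was 2.58-fold higher. The glucocorticoid receptor gene NR3C1 differed by 0.04. Of its usual targets, the immunophilin FKBP5 was at 8.31 and 9.12, 1.75-fold higher, CEBPD was at a log2 difference of 0.45, the aminotransferase TAT at 0.31 and the gluconeogenic PCK1 at 0.16. The TAT value is from a probe set of the _x_at type, and its other probe sets were below background on both arrays. ERRFI1, on the same list, was at -0.03, and TSC22D3 and ZBTB16 were below background on both arrays. SGK1 itself, which also responds to glucocorticoids, was at -1.36. Of the 7 genes of this list above background, NR3C1 and HSD11B2 among them, 5 were above 0 (58.1% of all genes above background). The median of the 7 was 0.16, and none passed 2-fold.

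**Figure D4:**
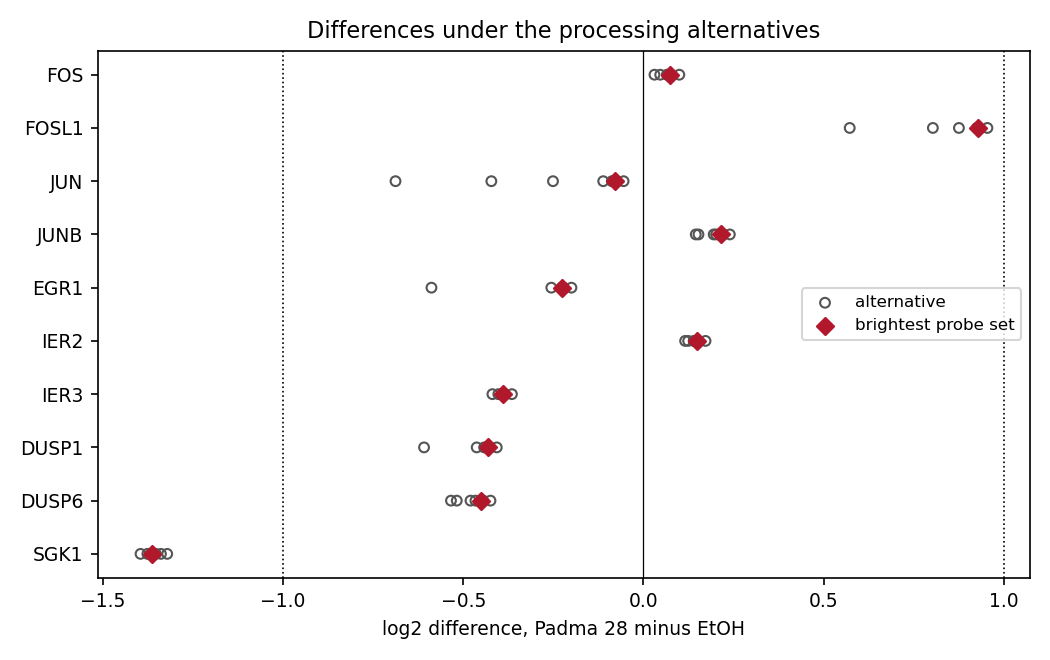
Log2 difference, Padma 28 minus EtOH (horizontal axis), of each of the 10 genes (vertical axis) with its brightest probe set (red diamonds) and under the processing alternatives (open circles), from 1 array per treatment, with dotted lines at 2-fold. SGK1 stays between -1.40 and -1.32 and FOSL1 between 0.57 and 0.95, while JUN ranges from -0.69 to -0.06.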

How the data were processed

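Total RNA from pooled cells of 3 HepG2 cultures per treatment was hybridised to 1 array each. The authors deposited log2 expression values of 54675 probe sets after background correction, quantile normalization and summarization with GCRMA. Versions given in the submitters' processing notes are R 2.15.1 and GCRMA 2.28.0, whereas the paper gives earlier ones. Its unspecific filter has no criterion in the sources used here and was not applied.

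Genes were named from the platform annotation with symbols updated through Entrez identifiers to RefSeq (GRCh38.p14). Probe sets with several genes (1801) or none (11777) name no gene. Differences were Padma 28 minus EtOH, and the thresholds were 2-fold, as in the study, and 1.5-fold. The genes and lists were chosen with earlier results of these data known. The text names all 10 genes and, of each list, genes past 2-fold and up to 4 with the largest difference above background. Alternatives concerned the probe set chosen, probe set types, shared probe sets, 16 or 64 added to linear values, centring (median, or loess with a span of 0.3), repeated quantile normalization and filters at 2 and 3 log2 units. With 1 array per treatment, the number of arrays limits the precision. Counting was tested on simulated data. Python 3.11.15 was used with pandas 2.3.3, numpy 2.4.6, matplotlib 3.10.9 and statsmodels 0.14.6.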

Additional observations from a re-analysis of the deposited data

How the results depend on the processing

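SGK1 alone was more than 2-fold lower and none of the 10 genes was more than 2-fold higher under all 11 alternatives, with a log2 difference of SGK1 between -1.40 and -1.32. SGK1 has 1 probe set, so alternatives that only change the choice of probe set or the filter could not change its value. At 1.5-fold in place of 2-fold, 1 gene (FOSL1) was higher and 1 (SGK1) lower. The median of the 10 genes, -0.15, was -0.46 with the probe set of the largest difference and 0.074 without _x_at and _s_at probe sets, which leaves 7 genes, since EGR1, IER3 and DUSP1 have no other type. Of 107 values of single genes under the alternatives, 50 equal the reported value exactly, as where a gene has 1 probe set and only the choice of probe set changes. Of the 57 others, 51 moved by less than 0.14 log2 units, the median spread between probe sets of a gene. The other 6 belong to JUN (-0.69, -0.25 and -0.42 by choice of probe set), EGR1 (-0.59) and DUSP1 (-0.61) with the largest difference, and FOSL1 (0.57 with 64 added, under 1.5-fold). Over all genes, the counts past 2-fold were 173 higher and 76 lower, 264 and 153 with the largest difference, 114 and 60 with the median over probe sets, 97 and 54 with 16 added, and 64 and 34 with 64 added. No paired analysis was possible because there is 1 array per treatment.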
